A study of Mus musculus with 15 samples.

Results

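Foxc1, Foxc2, Foxd1, Foxd2, Foxf1 and Foxf2 are 6 genes of the forkhead family, and every probe set whose gene symbol was one of them was taken, which gave 10 of the 45101 probe sets on the array. A probe set is a group of short array probes that reads 1 transcript. Of the 10, 8 lay above the filter on dim probe sets described below, and these covered all 6 genes.

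Forkhead genes encode transcription factors that bind DNA through a winged-helix domain. In the mouse face several of them are switched on in crest-derived mesenchyme, the connective tissue that builds the jaws, by Sonic hedgehog secreted from the overlying epithelium. Foxc1 and Foxc2 act in head mesenchyme, eye, skeleton and blood vessels, Foxd1 marks kidney stroma and part of the retina, Foxd2 is made in facial and kidney mesenchyme, Foxf1 acts in gut and lung mesenchyme, and mice without Foxf2 have a cleft palate. Dlx genes encode homeodomain factors that give the jaw parts of the first arch their identity, and Dlx5 with Dlx6 is needed for the lower jaw.

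RNA was taken from E10.5 mouse embryos (E, embryonic day), from the first branchial arch, whose mandibular branch forms the lower jaw and whose maxillary branch forms the upper jaw. There were 15 arrays in 5 groups of 3: the mandibular branch of Dlx5/6 mutants (5_6_MNA), the wild-type (WT) mandibular branch (WT_MNA), a first WT maxillary group (WT_MXA, called set 1), the KO maxillary branch (KO_MXA), and a second WT maxillary group (WT_MXA2, called set 2). The KO labels named no gene, and the shared description, written as a plan, listed dlx2, dlx1/2 and Dlx5/6 mutants and foresaw pooling of arches. Neither the alleles nor whether arrays came from separate pools was stated, so p values measure only the spread between these arrays.

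Dlx5 averaged 10.9 ± 2.97 in the Dlx5/6 mutant mandibular branch and 727 ± 40.6 in the WT mandibular branch (deposited intensity, SD, n = 3 each). Dlx2 averaged 3.36 ± 0.180 in the KO maxillary branch and 422 ± 20.1 in WT maxillary set 2, and Dlx1 averaged 209 ± 11.7 in the KO and 711 ± 30.8 in set 2. Dlx5 was also lower in the KO, at 33.5 ± 5.98 against 117 ± 24.6 in set 2. Dlx1 was higher in the Dlx5/6 mutant, at 814 ± 34.1 against 482 ± 6.90 in the WT mandibular branch. The median intensity of an array was 26.6 to 33.4, and the dap spike-in control split the arrays into 2 array sets. It read 496 to 582 on the 9 arrays of the Dlx5/6 mutant, WT mandibular and set 1 groups, and 3985 to 4469 on the 6 arrays of the KO and set 2 groups. Each mutant was therefore compared with the wild type of its own array set. Summed markers of crest-derived mesenchyme were 5252 to 7492 over all arrays, and those of forebrain and eye, where Foxd1 is also made, were 39.0 to 102, with Six6 and Rax below the filter.

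**Figure D1:**
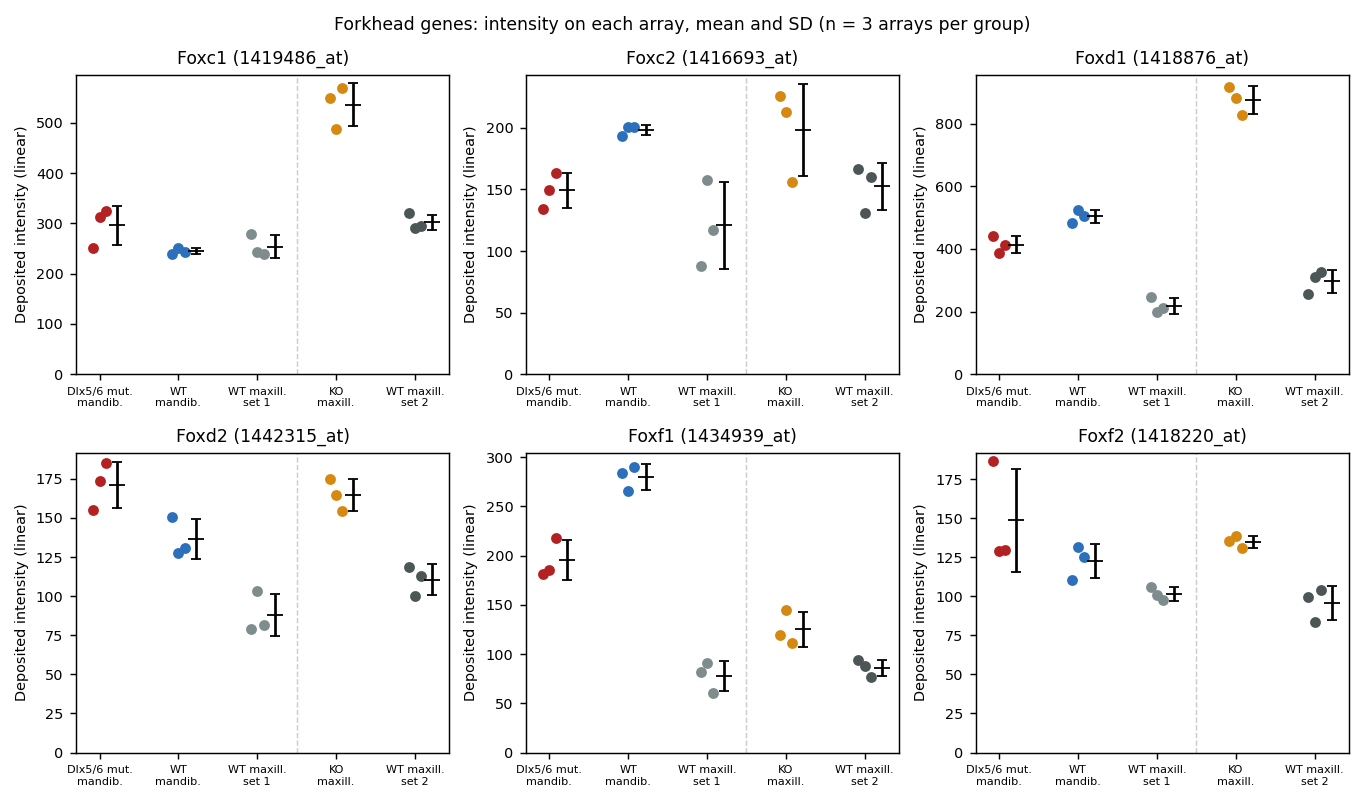
Deposited intensity (linear axis from 0) of the brightest kept probe set of each of the 6 genes on each array. Coloured points are arrays, black bars are the mean and SD over 3 arrays, and the dashed line parts the 2 array sets. Foxd1 and Foxc1 stand highest in the KO maxillary arrays, at 827 to 917 and 488 to 570, and Foxf1 stands highest in the WT mandibular arrays, at 265 to 291.

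The KO maxillary branch carried more Foxd1 and Foxc1 RNA than the WT maxillary branch of the same array set. Foxd1 rose 2.95-fold and Foxc1 rose 2.42-fold and 1.78-fold by its 2 probe sets, as ratios of mean intensities. The other 4 genes did not pass the test. This comparison describes how the KO branch differed from WT.

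Foxd1 (1418876_at, chromosome 13) read 917, 883 and 827 on the KO maxillary arrays, against 256, 309.5 and 326 on the set 2 arrays. The lowest KO array was above every set 2 array by a wide margin. On the log2(intensity + 32) scale, which understates changes of dim probe sets, the change was 1.46 ± 0.09 (SE; limma adjusted p = 9.3e-10), rank 6 of 31643 kept probe sets.

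Foxc1 (chromosome 13) gave 346, 352 and 335 on the KO arrays with probe set 1419485_at, against 143, 146 and 137 on the set 2 arrays. Its other probe set, 1419486_at, gave 549.8, 488 and 570 on the KO arrays, against 319.8, 291 and 295 on the set 2 arrays. Neither probe set had overlapping groups. The log2 changes were 1.11 ± 0.10 (limma adjusted p = 3.2e-07) and 0.78 ± 0.09 (limma adjusted p = 2.6e-05), so that the probe sets agreed in direction and differed in size.

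Of the 8 kept member probe sets 3 were called higher in the KO and 0 lower. Of all kept probe sets 0.913% were called in this comparison, and 0.465% were called higher. The median change of the 8 was 0.44. In 6 of the 8 the KO and set 2 intensities did not overlap, against 15% of all kept probe sets. The 3 called changes kept their direction and call in all 31 other settings tried. These were not separate checks, since the array set as a term gave the main fit again and some left-out arrays were of neither group.

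Foxd2 (1442315_at, chromosome 4) read 175, 164 and 154 on the KO arrays, against 119, 99.9 and 113 on the set 2 arrays. The groups did not overlap, and the change of 0.45 ± 0.11 missed the threshold at limma adjusted p = 0.054. Without WT mandibular replicate 1 or set 1 replicate 2, arrays of neither group, that adjusted p was 0.0478 and 0.0385, and Foxd2 also passed under 4 other settings with the same control, at 0.0408 to 0.05.

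Foxf1 (chromosome 8) read 119, 145 and 111 on the KO arrays with probe set 1434939_at, against 93.7, 87.5 and 76.9 on the set 2 arrays. The groups did not overlap here either, and the change was 0.39 ± 0.12 (limma adjusted p = 0.17, 95% interval 0.14 to 0.63). Its dimmer probe set 1423013_at, above the filter on 13 of 15 arrays, gave 0.42 ± 0.22 (limma adjusted p = 0.54).

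Foxf2 (1418220_at, chromosome 13) read 135, 138 and 131 on the KO arrays, against 99.6, 83.5 and 104 on the set 2 arrays. The KO arrays were all higher, with a change of 0.37 ± 0.12 (limma adjusted p = 0.21, 95% interval 0.12 to 0.62). Foxc2 (1416693_at, chromosome 8) read 226, 213 and 156 on the KO arrays and 167, 131 and 159.9 on the set 2 arrays. Those groups overlapped, with a change of 0.30 ± 0.14 (limma adjusted p = 0.47, 95% interval 0.01 to 0.59).

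Marker sums of other cell types moved between the same groups. The endothelial sum was 1249 to 1453 in the KO and 922 to 1083 in set 2 (8 of 8 markers kept, with Emcn called higher). The macrophage sum was 620.5 to 721 in the KO and 439 to 466 in set 2 (7 of 8 kept, with Csf1r and Mrc1 called higher). The sum for arch mesoderm and muscle was 583 to 655 in the KO and 392 to 506 in set 2 (6 of 7 kept, with Lhx2 called higher). The sum for sensory neurons and glia was 732 to 762 in the KO and 1108 to 1146 in set 2 (10 of 10 kept, 3 called lower). The epithelial sum was 2268 to 2371 in the KO and 1967 to 2050 in set 2 (7 of 7 kept, 0 called by limma). The crest mesenchyme sum, which includes Dlx2, was 5979 to 6319 in the KO and 6749 to 7119 in set 2 (Prrx1 and Dlx2 called lower, Tfap2a called higher). Their part in the forkhead changes was not tested, and in RNA of whole branches fewer cells of a type and less RNA per cell cannot be told apart.

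The promoters of Foxc1 and Foxd1, the pair that rose in the KO, are shown for the 250 bases before the annotated start, from RefSeq (GRCm38.p6). They lie on the plus strand at chr13:31806396-31806645 and chr13:98353995-98354244, and capitals mark CpG dinucleotides.
Foxc1: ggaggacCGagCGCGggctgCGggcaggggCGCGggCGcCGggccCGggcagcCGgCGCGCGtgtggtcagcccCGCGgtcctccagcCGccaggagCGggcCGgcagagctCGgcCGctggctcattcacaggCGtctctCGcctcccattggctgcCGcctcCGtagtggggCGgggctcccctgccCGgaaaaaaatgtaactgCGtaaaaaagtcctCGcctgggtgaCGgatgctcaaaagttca
Foxd1: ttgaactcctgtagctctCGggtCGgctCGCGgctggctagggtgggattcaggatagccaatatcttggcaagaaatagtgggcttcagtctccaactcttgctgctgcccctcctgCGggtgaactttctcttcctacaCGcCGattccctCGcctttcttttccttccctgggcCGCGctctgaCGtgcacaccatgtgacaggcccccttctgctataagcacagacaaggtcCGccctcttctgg
The Foxc1 window held 29 CpG and 70.8% G or C, and the Foxd1 window held 12 CpG and 57.2%, where the median of 32851 promoters was 52.4%. Windows were also read for Foxd2, with 16 CpG, and Foxf2, with 21 CpG. None of these 4 windows held, on either strand, the letters TGGGTGGTC bound by Gli factors, TAATTA bound by many homeodomain factors, TGTTTAC bound by forkhead factors or the TATA box letters TATAAA. Those letters occurred in 0.225%, 4.84%, 3.17% and 12.4% of all promoters in that order, and their absence says only that they are not in these windows.

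In the Dlx5/6 mutant mandibular branch Foxc1 rose by 1 of its 2 probe sets and Foxf1 fell by 1 of its 2, each by under 1.5-fold. Foxd1, which rose in the KO, was not called here. This comparison describes how loss of Dlx5 and Dlx6 altered the mandibular branch.

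Foxc1 probe set 1419485_at read 151, 175 and 163 on the Dlx5/6 mutant arrays, against 124, 117 and 98.9 on the WT mandibular arrays. All mutant arrays were above all WT arrays, and the change was 0.44 ± 0.10 (limma adjusted p = 0.013). Probe set 1419486_at read 252, 313 and 324 on the mutant arrays, against 239, 252 and 243 on the WT arrays, and its change of 0.25 ± 0.09 was not called (limma adjusted p = 0.19). The call for 1419485_at was lost without mutant replicate 2 (adjusted p = 0.0889) and without WT mandibular replicate 3 (adjusted p = 0.0927). It was also lost with only the groups compared in the fit (limma adjusted p = 0.0606).

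Foxf1 probe set 1434939_at read 182, 185 and 218 on the Dlx5/6 mutant arrays, against 284, 265 and 290.5 on the WT mandibular arrays. The mutant arrays were all lower, and it fell by 0.44 ± 0.12 (limma adjusted p = 0.047). That call stood close to the threshold and was lost in 15 of 30 other settings. These included the fit with the replicate number as a block (adjusted p = 0.0581) and leaving out any one of the 6 mutant and WT mandibular arrays, KO replicate 1, set 1 replicate 1, or set 2 replicate 1 or 2 (adjusted p up to 0.177). The dimmer probe set 1423013_at gave -0.27 ± 0.22 (limma adjusted p = 0.68).

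Of the 8 kept member probe sets 2 were called in this comparison, 1 in each direction, against 2.66% of all kept probe sets called, 1.41% higher and 1.25% lower. In 6 the groups did not overlap, against 19.5%. Foxd1 read 441, 387 and 411 on the mutant arrays, against 483, 525 and 506 on the WT mandibular arrays. Every mutant array was lower, with a change of -0.26 ± 0.09 (limma adjusted p = 0.17, 95% interval -0.45 to -0.07).

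Foxc2 read 134, 149.7 and 163 on the mutant arrays, against 194, 201 and 201 on the WT mandibular arrays, a change of -0.32 ± 0.14 (limma adjusted p = 0.30). Foxd2 read 155, 173 and 185 on the mutant arrays, against 151, 127 and 131 on the WT arrays, a change of 0.29 ± 0.11 (limma adjusted p = 0.21). Neither gene had overlapping groups. Foxf2 read 187, 129 and 129.9 on the mutant arrays, against 110.4, 131 and 125 on the WT arrays. Mutant replicate 1 stood apart from the other two and the groups overlapped, with a change of 0.23 ± 0.12 (limma adjusted p = 0.43).

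Beside these values, the macrophage sum was 447 to 516 in the Dlx5/6 mutant and 289 to 319.7 in the WT mandibular branch, and the sum for arch mesoderm and muscle was 439 to 516 in the mutant and 660.2 to 677 in WT. The crest mesenchyme sum was 6691 to 7134 in the mutant and 5252 to 5796 in WT (Prrx2 and Twist1 called higher, Msx1 called lower). The sum for sensory neurons and glia was 360.3 to 394 in the mutant and 240.2 to 274 in WT. Their part in the forkhead values was not tested.

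**Figure D2:**
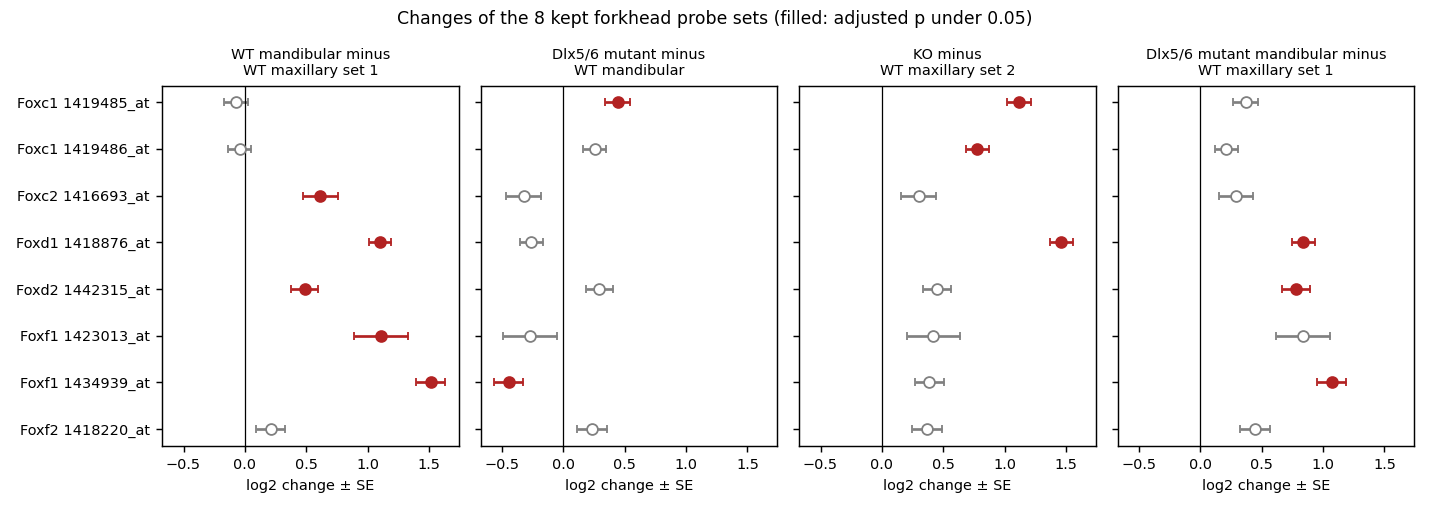
Log2 change and SE of the 8 kept forkhead probe sets in 4 comparisons, with filled points called at adjusted p under 0.05. Foxd1 has the largest change in the KO, at 1.46, and Foxf1 1434939_at has the largest between the WT branches, at 1.51. The panels share arrays as described in the text.

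The mutant effects were set against each other by the difference of both changes, Dlx5/6 mutant minus WT mandibular less KO minus set 2, which share no array. Foxd1 gave -1.72 ± 0.13 (limma adjusted p = 1.2e-08), Foxf1 1434939_at gave -0.83 ± 0.17 (limma adjusted p = 0.010) and Foxc1 1419485_at gave -0.67 ± 0.14 (limma adjusted p = 0.012). These 3 of 8 were called, against 1.09% of all kept probe sets called and 0.566% called lower, and each was lower in the Dlx5/6 contrast than in the KO contrast. Foxc1 1419486_at gave -0.52 ± 0.13 (limma adjusted p = 0.057), a value that passed the threshold without mutant replicate 3 (0.0458) or KO replicate 2 (0.0472). Foxd2 gave -0.16 ± 0.16 with a 95% interval of -0.48 to 0.17, and Foxf2 gave -0.14 ± 0.17 with an interval of -0.49 to 0.22. The tissue also differed between these contrasts, and branch and mutation cannot be told apart in the difference.

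The WT mandibular branch carried more Foxf1, Foxd1, Foxc2 and Foxd2 RNA than WT maxillary set 1, while neither Foxc1 probe set was called. Of the 8 kept member probe sets 5 were called, all higher in the mandibular branch, against 2.64% of all kept probe sets called and 1.13% called higher. In 6 the groups did not overlap, against 17.6%. This comparison and those of the Dlx5/6 mutant share arrays, so their values stand side by side here without a test between them. Against set 2, the WT maxillary group of the other array set, Foxc2 gave 0.30 (adjusted p = 0.205) and Foxd2 0.21 (0.26), neither called, and Foxd1 gave 0.68 and was called. Foxc1 1419486_at was called lower there, at -0.29 (0.0471). Branch and array set cannot be told apart in those values. With the larger pseudocount tried, against set 1, Foxf1 1423013_at gave 0.47 and Foxf1 1434939_at 0.99, both still called.

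Foxf1 probe set 1434939_at read 284, 265 and 290.5 on the WT mandibular arrays, against 81.3, 91.3 and 60.9 on the set 1 arrays. Probe set 1423013_at read 59.4, 86.2 and 76.5 on the mandibular arrays, against 27.1, 7.14 and 20.0 on the set 1 arrays. Both were far apart between the groups, with changes of 1.51 ± 0.12 (limma adjusted p = 7.9e-09) and 1.11 ± 0.22 (limma adjusted p = 0.0035).

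Foxd1 read 483, 525 and 506 on the WT mandibular arrays, against 246, 197 and 210.3 on the set 1 arrays. The groups did not overlap, and the change was 1.10 ± 0.09 (limma adjusted p = 2.4e-08).

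Foxc2 read 194, 201 and 201 on the WT mandibular arrays, against 88.0, 158 and 117 on the set 1 arrays, and changed by 0.61 ± 0.14 (limma adjusted p = 0.013). Its set 1 arrays spread widely, and the call was lost without set 1 replicate 1 (adjusted p = 0.111), set 1 replicate 3 (0.0544) or mandibular replicate 2 (0.0515). The Foxc2 call was also lost with no intensity trend (limma adjusted p = 0.059). Foxd2 read 151, 127 and 131 on the mandibular arrays, against 78.8, 104 and 81.6 on the set 1 arrays, and changed by 0.49 ± 0.11 (limma adjusted p = 0.013). That call was lost without mandibular replicate 1 (0.0826), set 1 replicate 1 (0.0737) or set 1 replicate 3 (0.0762), and with only the groups compared (0.0535).

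Foxc1 1419486_at averaged 245 ± 6.54 in the WT mandibular branch and 254 ± 22.7 in set 1 (SD, n = 3 each), a change of -0.04 ± 0.09 with a 95% interval of -0.24 to 0.15. Foxc1 1419485_at gave -0.07 ± 0.10 with an interval of -0.28 to 0.13. Foxf2 averaged 122 ± 10.8 in the mandibular branch and 101 ± 4.35 in set 1, a change of 0.21 ± 0.12 (limma adjusted p = 0.54).

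The neuron and glia sum was 240.2 to 274 in the WT mandibular branch and 2583 to 2762 in set 1, with 10 of 10 markers called lower in the mandibular branch. The crest mesenchyme sum was 5252 to 5796 in the mandibular branch and 6960 to 7492 in set 1, and the epithelial sum was 2187 to 2274 in the mandibular branch and 1990 to 2118 in set 1. The macrophage sum was 289 to 319.7 in the mandibular branch and 444 to 464 in set 1, with Csf1r called lower in the mandibular branch. Of the mesoderm and muscle list Myf5 and Tcf21 were called higher in the mandibular branch and Isl1 lower, and the part of these cell types in the forkhead changes was not tested.

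Set against WT maxillary set 1, the Dlx5/6 mutant mandibular branch still carried more Foxf1, Foxd1 and Foxd2. Foxf1 1434939_at changed by 1.07 ± 0.12 (limma adjusted p = 8.6e-06), Foxd1 by 0.84 ± 0.09 (limma adjusted p = 7.7e-06) and Foxd2 by 0.78 ± 0.11 (limma adjusted p = 0.00024). These 3 of 8 were called, against 0.594% of all kept probe sets called and 0.202% called higher. All 3 held the call in all 31 other settings, with smaller values in some. Against set 2 Foxd1 gave 0.42, and with the larger pseudocount tried Foxd2 gave 0.48 and Foxf1 1434939_at 0.66. In 6 of 8 the groups did not overlap, against 14.8%. Foxf1 1423013_at, at 0.84 ± 0.22 (limma adjusted p = 0.11), was called without set 2 replicate 2 (0.0185). Foxc2, called between the WT branches, gave 0.29 ± 0.14 here (limma adjusted p = 0.58). The neuron and glia sum was 360.3 to 394 in the mutant and 2583 to 2762 in set 1. The sum for arch mesoderm and muscle was 439 to 516 in the mutant and 615 to 679 in set 1. Of that list Isl1 was called lower, averaging 275 against 470 in set 1, and Lhx2 averaged 41.2 against 53.3. The other kept markers averaged higher in the mutant and were not called: Tcf21 50.5 against 27.3, Msc 43.5 against 30.8, Tbx1 52.2 against 44.7 and Myf5 16.7 against 11. The epithelial sum was 2222 to 2336 in the mutant and 1990 to 2118 in set 1. The part of these cell types in the forkhead changes was not tested.

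Across the 5 groups the order of means differed by gene, and places between array sets mix group with set. Foxd1 ran from 876 in the KO through 505 in the WT mandibular branch, 413 in the Dlx5/6 mutant and 297 in set 2 to 218 in set 1, with no overlap between neighbours. Foxf1 1434939_at ran from 279.8 in the WT mandibular branch through 195 in the mutant and 125 in the KO to 86.0 in set 2 and 77.9 in set 1, where only the last pair overlapped. Foxd2 was highest in the mutant, at 171, and in the KO, at 165, which overlapped, and lowest in set 1, at 88.0. Foxf2 ranged from 148 in the mutant to 95.8 in set 2. Foxc1 1419486_at stood highest in the KO, at 536, clear of the other 4 groups, whose means were 245 to 302. Foxc2 averaged 198 in both the KO and the WT mandibular branch and 121 to 152 in the other 3 groups.

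The dim probe sets gave no usable level. Foxd2 1450289_at read 1.39 to 27.8 and passed the filter level on 1 array, and Foxf2 1447562_at read 1.01 to 9.44 and passed it on 0 arrays. Neither was tested.

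The hedgehog pathway was read through 12 genes with a kept probe set. In the KO, Ptch1, the receptor and a target of the pathway, rose by 0.33 ± 0.06 (limma adjusted p = 0.0072), while the co-receptors Cdon and Gas1 fell by 0.50 and 0.64 (limma adjusted p = 0.0085 and 0.0016). The Ptch1 call was lost without KO replicate 1 (0.0548), and the Cdon call without KO replicate 1 (0.0548) or 2 (0.0533). With no intensity trend none of these 3 probe sets, the brightest of each gene, was called (adjusted p = 0.107 for Ptch1, 0.0723 for Cdon and 0.0596 for Gas1). With arrays set to a common median Ptch1 was not called (0.0765). Against set 1, in the other array set, Gas1 gave -0.30 (0.0752). The other Ptch1 probe sets gave 0.26 and 0.19 and were not called. The other Gas1 probe sets gave -0.53, which was called (limma adjusted p = 1.3e-05), and -0.32, which was not (0.74). The other Cdon probe set gave -0.555 and was not called (limma adjusted p = 0.27). Gli1, a pathway target, gave 0.36 ± 0.16 (limma adjusted p = 0.42).

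Between the WT branches Shh, the ligand, averaged 318 in the mandibular branch and 140 in set 1, with a change of 1.01 (limma adjusted p = 1.2e-05). Its other kept probe set gave 0.10 (limma adjusted p = 0.93), so the probe sets disagreed. Ptch1 rose by 0.62 and Cdon fell by 0.57 in the mandibular branch. A dimmer Gas1 probe set was called lower there, at -0.29 (limma adjusted p = 0.0069). The brightest Gas1 probe set gave -0.19 (0.5) and the remaining Gas1 probe set 0.52 (0.42), neither called. In the Dlx5/6 mutant against the WT mandibular branch limma called 0 of the 12, with 2 at an unadjusted p under 0.05, where 3.16% of all genes were called. Against set 1 the mutant had more Shh, by 0.78, and Ptch1, by 0.68, with the brightest probe set of each. The other Shh probe set gave 0.085 there (limma adjusted p = 0.97). The other Ptch1 probe sets gave 0.17 (limma adjusted p = 0.82) and 0.24 (0.85), and none of these was called. List medians were -0.11 between the WT branches, 0.05 in the Dlx5/6 contrast and -0.04 in the KO, where all genes had medians of 0, -0.01 and 0.

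**Figure D3:**
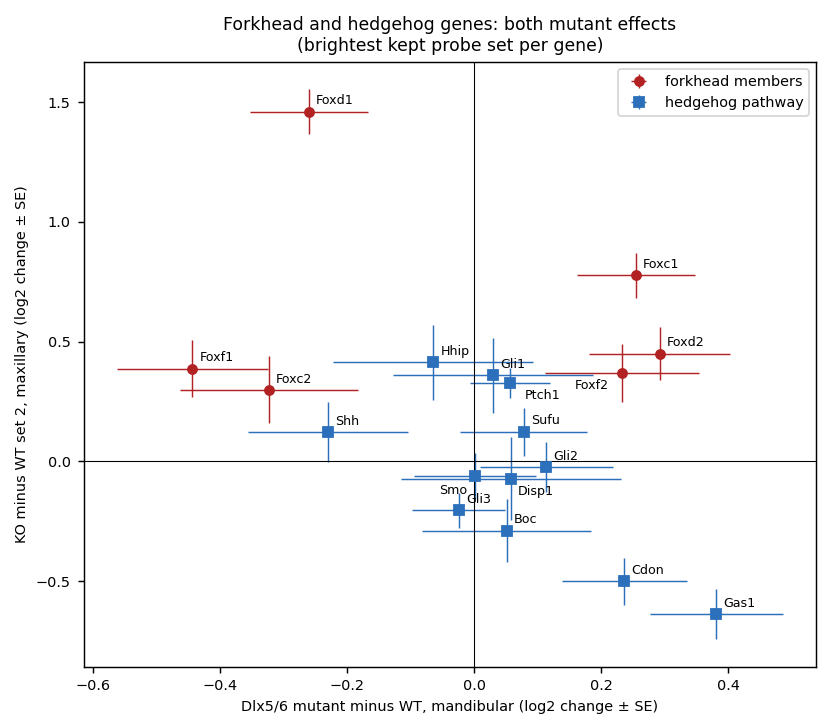
Log2 change and SE in the Dlx5/6 mutant mandibular branch (horizontal) and in the KO maxillary branch (vertical) for the 6 forkhead genes (red) and 12 hedgehog pathway genes (blue), brightest kept probe set of each. Foxd1 lies at -0.26 and 1.46, and Gas1 at 0.38 and -0.64.

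Of 34 other symbols starting with Fox, 26 had a kept probe set. The 26 include the antisense RNA Foxl2os, and Foxred1 and Foxred2, which are not forkhead genes. Foxl2, known for its part in the ovary and eyelid, averaged 305 in the Dlx5/6 mutant and 77.2 in the WT mandibular branch, a change of 1.61 ± 0.10 (limma adjusted p = 1.4e-10), and its antisense RNA Foxl2os changed by 1.43 ± 0.10 (limma adjusted p = 2.7e-09). In the KO Foxl2 gave -0.27 (limma adjusted p = 0.26). Which of this overlapping pair each probe set reads was not examined. Between the WT branches Foxl2 and Foxl2os were lower in the mandibular branch, with changes of -1.73 and -1.81, and Foxa1 was higher by 0.86 and Foxp1 by 0.38. The other kept Foxl2 probe set gave 0.905 in the Dlx5/6 contrast (limma adjusted p = 0.0073), -0.30 between the WT branches (0.59) and 0.34 in the KO (0.57), so the Foxl2 probe sets disagreed in part. The call of the brightest Foxp1 probe set was lost without WT mandibular replicate 2 (0.0737) or 3 (0.127) or set 1 replicate 3 (0.089). It was also lost with only the groups compared (0.0897) and with no intensity trend (0.0796). Against set 2 the same probe set gave 0.073 (0.701). For genes of this list other than Foxl2, only the brightest kept probe set is described here. The losses are therefore no result about other probe sets of Foxp1. In the KO limma called 0 of the 26, with 6 at an unadjusted p under 0.05, where 1.26% of all genes were called.

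Foxf1 and Foxc2 lie 28.0 kb apart on chromosome 8 with Mthfsd between them, and Foxf2 and Foxc1 lie 175 kb apart on chromosome 13. Foxf1 and Foxc2 were both called higher in the WT mandibular branch, while Mthfsd gave 0.30 (limma adjusted p = 0.28). In the KO Foxc1 rose while Foxf2 gave 0.37 and Gmds, on the other side of Foxc1, gave 0.21 (limma adjusted p = 0.66). Of 17 neighbouring genes that were no member 10 had a kept probe set, and limma called 0 in every comparison, with 2 at an unadjusted p under 0.05 between the WT branches and 0 in the others. Of all genes 0.782% to 3.56% were called, so a count of 0 among 10 lies near the background and is no result about the neighbours.

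**Figure D4:**
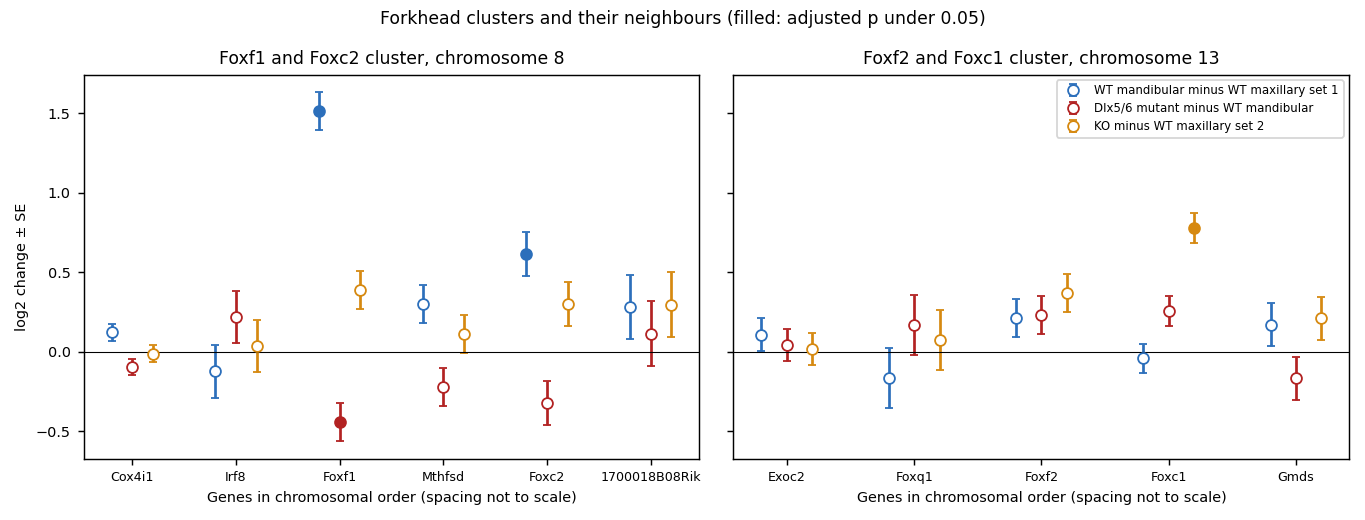
Log2 change and SE of genes in order along the Foxf1 and Foxc2 cluster (left) and the Foxf2 and Foxc1 cluster (right) in 3 comparisons, with filled points called at adjusted p under 0.05. Foxf1, at 1.51, stands above Mthfsd, at 0.30, between the WT branches, and Foxc1, at 0.78, above Foxf2, at 0.37, in the KO.

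Likeness was measured as Pearson's r over 15 arrays after subtracting the WT maxillary mean of each array set, as a description only, since arrays of 1 group share their group. Foxc1 was most like Col5a2 (r = 0.972), Tgfbi (0.954) and Col3a1 (0.929). Foxf1 was most like Col9a1 (0.965), Dkk1 (0.954) and Flrt3 (0.947). Foxd1 was most like Kctd12b (0.907), Arhgap29 (0.883) and Krt18 (0.872). Foxd2 was most like E4f1 (0.889), Ptch1 (0.880) and Rac1 (0.850), and Foxc2 most like Podxl (0.863), Asb4 (0.853) and Runx1t1 (0.842). Among the members the highest r was 0.787, between Foxc2 and Foxf1, and the lowest was -0.095, between Foxc1 and Foxf1.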

How the data were processed

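The authors deposited a linear intensity for each probe set on 15 Affymetrix mouse arrays. How probes were summarised and background was corrected is not given in the sources used here. After trimming 2% at each end every array averaged 150, so the values had been scaled. The values were taken to log2(intensity + 32) and quantile normalized. Of 45101 probe sets, 64 of them controls, 31643 exceeded the 40th percentile of 3 or more arrays and were tested. Comparisons were contrasts of a single model in limma 3.58.1 (R 4.3.3) with a mean per group, an intensity trend and 10 residual degrees of freedom, two-sided, with Benjamini-Hochberg adjustment over all tested probe sets and a call at adjusted p under 0.05. Intervals are 95% from the moderated SE. The median SE of a change was 0.148, and the number of arrays limits the precision.

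On data simulated for the Dlx5/6 contrast (31356 probe sets) 32.8% of 1.5-fold, 83.1% of 2-fold and 84.1% of 3-fold changes were recovered. Changes were put only into the Dlx5/6 mutant group, and 132 probe sets were called, against 841 in the data. Recovery after the adjustment depends on how many probe sets change, so these rates need not hold for the data. These rates were not split by intensity. They give no recovery rate for intensity ratios of dim probe sets, whose changes the log2 scale used here understates. Gene symbols came from the platform annotation, and promoters from RefSeq (GRCm38.p6). A gene in a list was read by its brightest kept probe set with 1 symbol. All members were named, with called members of the hedgehog, other forkhead and neighbour lists and the 3 genes most like each member called in a comparison. Members and lists were chosen with earlier results of these data known. Same-numbered arrays of different groups had residual correlations of -0.096 to 0.085 over 30 pairs. The values show no strong shared effect of a number. They cannot exclude a shared litter or pool, since the labels do not say what a number means. Replicates correlated at 0.983 to 0.991 and 0 pairs were identical. Other normalizations, pseudocounts, filters, variance settings, a replicate block, the other WT maxillary control and leaving out each array were tried. The array set as a term was also counted among the settings, but it is the main fit in another form.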

Additional observations from a re-analysis of the deposited data

Results flagged for a closer look

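The effect of the Dlx5/6 mutation in the mandibular branch and that of the KO in the maxillary branch differed, by the contrast between them, for 7 probe sets. These were counted over all kept member probe sets and the brightest kept probe set of each gene in the hedgehog and other forkhead lists. Among the members the difference (Dlx5/6 effect minus KO effect, log2) was -1.72 for Foxd1, -0.83 for Foxf1 1434939_at and -0.67 for Foxc1 1419485_at. Among hedgehog co-receptors it was 1.02 for Gas1 (limma adjusted p = 0.00026) and 0.74 for Cdon (limma adjusted p = 0.0047). The other Gas1 probe sets gave 0.73 (limma adjusted p = 1.2e-05) and 0.355 (0.82), and the other Cdon probe set gave 0.95 (0.14). Foxl2 gave 1.89 (limma adjusted p = 4.7e-09) and Foxl2os gave 1.73 (limma adjusted p = 6.6e-08), while the other kept Foxl2 probe set gave 0.56 (limma adjusted p = 0.49). Branch and mutation cannot be told apart in these differences.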

How the results depend on the processing

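Between the WT branches the number of called member probe sets was 5, with 3 at adjusted p under 0.01 and 3 to 5 with 1 array left out. In the Dlx5/6 mutant against the WT mandibular branch it was 2, with 1 under a pseudocount of 8, no filter, only the groups compared, no intensity trend or the replicate block, 0 at adjusted p under 0.01, and 0 to 2 with 1 array left out. In the KO it was 3, with 6 against the other WT maxillary control and 3 to 4 with 1 array left out. In the mutant against set 1 it was 3, and 3 to 4 with 1 array left out. For the difference of effects it was 3, with 1 at adjusted p under 0.01, 5 with the other control and 3 to 4 with 1 array left out. The other control lies in the other array set, where array set and group cannot be told apart, and over all probe sets it gave 3318 calls between the WT branches, against 835, 3310 in the KO, against 289, 3536 in the mutant against maxillary comparison, against 188, and 2246 for the difference, against 346. Whether replicate numbers mark paired arrays is not known, and the replicate block lost the Foxf1 1434939_at call in the Dlx5/6 contrast (adjusted p = 0.0581). Over 1232 member values the direction turned in 5, none of them called: Foxc1 1419485_at between the WT branches was 0.007 without WT mandibular replicate 3 (-0.136 to 0.007 over the arrays left out), Foxc1 1419486_at was 0.008 with a common median and 0.024 without set 1 replicate 1 (-0.081 to 0.024 over the arrays left out), and against the other control Foxc1 1419486_at was -0.039 and Foxc2 1416693_at -0.028 in the mutant against WT maxillary comparison. Where a call was lost the cause was not tested. With no intensity trend the calls over all probe sets were 452 in the Dlx5/6 contrast, against 841, 172 in the KO, against 289, 125 in the mutant against set 1, against 188, and 219 for the difference, against 346. At adjusted p under 0.01 they were 530, 394, 152, 107 and 194 in the order branches, Dlx5/6, KO, mutant against set 1 and difference. With a common median the share of calls that were higher was 56.5% between the branches, against 42.6%, 32.7% in the KO, against 50.9%, and 45.5% in the mutant against set 1, against 34.0%. Leaving out mutant replicate 2 or 3 left 499 or 520 calls in the Dlx5/6 contrast, KO replicate 2 or set 2 replicate 1 or 3 left 187, 175 or 179 in the KO, and mutant replicate 2 left 119 in the mutant against set 1.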
